A study of Mus musculus with 9 samples.

Results

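Sorted mouse haematopoietic stem cells (HSCs) were compared, gene by gene, between mice with chemogenetic inhibition of the mPFC and PAG brain regions and control mice. The comparison takes 6 of the 9 libraries of the series, 3 per group, and all 19454 genes listed, of which 14461 had enough reads to be tested. The remaining 3 libraries came from inhibited mice that also received spermidine. They entered the filter on low counts, the scaling and the shared estimate of spread, so the set of genes tested depends on them. With 6 libraries only, 13239 genes were tested. The gene families described below were written down as lists by function, and each is given with its count of tested members.

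Every library came from wild-type mouse bone marrow flushed from femora and tibiae, after lysis of red cells, with 1500 sorted cells amplified over 12 PCR cycles from polyadenylated RNA. The labels give the inhibition group as mice in which both regions were silenced, and its library names carry the letters AAV, the usual short form of adeno-associated virus, a carrier for genes. For the control group they name no brain intervention. The chemogenetic receptor, its promoter, the drug that activates it, the sort markers, and the sex and age of the mice are not given in the sources used here. Effects of virus, surgery, drug and silencing cannot be told apart. Nothing states that the 3 libraries of a group came from separate mice, so p-values measure only the spread between these libraries, which may be technical.

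HSCs give rise to all blood cells, and even in sorted stem and progenitor cells several lineage programmes are transcribed at a low level before commitment. GATA factors, working with TAL1, LMO2 and LDB1 in one complex, drive erythroid, megakaryocyte and mast cell genes, while PU.1 and the C/EBP factors drive granulocyte and monocyte genes. Many functions of a blood cell, from the cytoskeleton to iron handling, are served by closely related genes (paralogues) that different lineages use to different extents.

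Library totals ran from 17231844 to 25360256 estimated counts, so that 3 counts, the floor used here, were 0.125 to 0.184 CPM, the counts scaled to a common library size. Correlations of log2 CPM were 0.989 to 0.991 within a group and 0.896 to 0.903 between the groups. The HSC list was not uniformly present. Of its 16 markers 9 were higher and 6 lower with inhibition, with a summed level of 370 to 379 CPM in control and 374 to 385 CPM in the inhibition libraries. Procr (EPCR) was at 0.0607, 0.161 and 0.155 CPM in the control libraries and 3.63, 4.78 and 3.90 CPM in the inhibition libraries, so that the control libraries were at or under the floor, while Fgd5 (0.209 to 1.37 CPM) and Hoxb5 (0.261 to 1.21 CPM) were near it, and Kit went from 43.3 to 36.5 CPM, a fall that turned into a rise in both limma fits on TPM. Among lists of other cells, all 15 megakaryocyte markers tested were lower (3209 to 3242 against 204 to 215 CPM). By contrast 14 of 15 neutrophil markers (1617 to 1678 against 48998 to 50338 CPM) and all 9 of granulocyte-monocyte progenitors (5850.0 to 6066 against 17218 to 17805 CPM) were higher. All 8 plasma-cell markers tested were higher as well. The 10 plasma-cell markers listed summed to 80.3 to 82.6 CPM in control against 4908 to 5327 CPM with inhibition. Stfa1 and Stfa2 of the neutrophil list, Rag1 and Pax5 of the B-cell list, and Cd3e and Cd5 of the T-cell list were at the floor in control. In sorted cells as in other bulk samples, fewer cells of a type and less RNA per cell cannot be told apart. The Y-linked genes Ddx3y and Eif2s3y were low in both groups, at 0.0516 to 0.310 CPM in control and 1.33 to 2.00 CPM with inhibition. The part of other cells, or of the sex of the mice, in the results below was not tested.

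With inhibition, 5240 of the 14461 genes tested were higher (36.2%) and 5227 were lower (36.1%) at an adjusted p under 0.05 in edgeR's quasi-likelihood test. In all, 10467 genes (72.4%) passed in either direction. For 10775 genes (74.5%) every library of one group lay above every library of the other. Most called genes moved modestly: 6277 of them (59.97%) changed by less than 2-fold, and the median size of a called change was 0.80 on the log2 scale. The median over all genes tested was 0.02. Each family is read against these shares, and levels written as going from one CPM value to another are the means of the 3 control and the 3 inhibition libraries. Of the 110 families, 67 had more members higher than lower, 41 had more lower than higher, and 2 had equal numbers.

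The direction of change followed the base composition of the transcripts. When protein-coding genes were put in 5 equal bins by the GC content of their transcripts, 49.7% rose and 18.4% fell in the lowest bin (median GC 40.5%), but 18.03% rose and 58.4% fell in the highest (median GC 57.6%). The median log2 fold change ran from 0.37 through 0.20, 0.02 and -0.15 to -0.48 across the 5 bins. The trend was also present among genes whose counts were whole numbers in all 6 libraries, with 54.95% rising in the lowest bin and 19.9% in the highest. What underlies the trend was not tested. A second fit, chosen after seeing the data, therefore scaled each library along GC content. It gave 5092 genes higher and 5026 lower. Of the genes called in the first fit, 8695 (83.1%) had the same direction in it and 236 the opposite. Family counts below are from the first fit, and the GC-scaled counts follow wherever they change the picture.

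**Figure D1:**
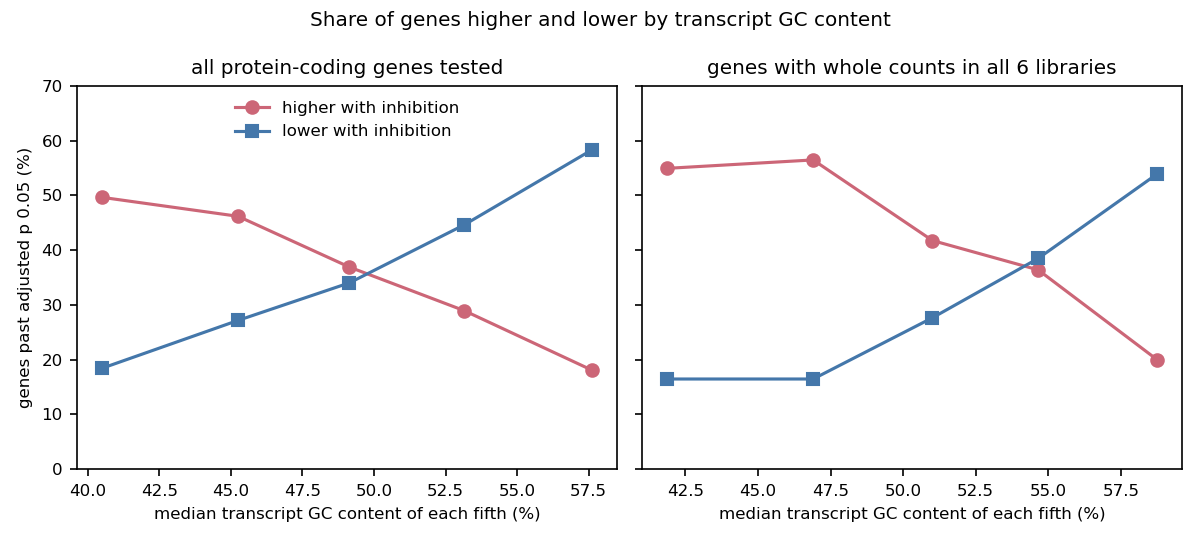
Share of protein-coding genes higher and lower with inhibition (y axis, percent) in 5 bins of equal size by transcript GC content (x axis, median GC percent of the bin), for all genes tested and for genes with whole counts. The share of genes rising falls from 49.7% to 18.03% and the share falling climbs from 18.4% to 58.4% over all genes.

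Many genes also had fractional counts. How the fractions were made is not given in the sources used here, and dividing a read among several genes or places is a common way. Of the genes tested 3650 had whole counts in all 6 libraries, and 42.3% of these rose and 30.3% fell, while of the 10811 others 34.2% rose and 38.1% fell. Abundant genes that moved steeply were also unevenly divided. At a mean of 100 CPM or more, 63 of 1116 genes with fractional counts (5.65%) were lower by 4-fold or more, against 3 of 438 with whole counts (0.685%), which were the platelet chemokine gene Pf4 and the stress-response genes Jun and Ppp1r15a. Of the same genes 15 with fractional counts (1.34%) and 20 with whole counts (4.57%) were higher by 4-fold or more. The 63 genes summed to 67201.5 CPM in control and 11465.5 CPM with inhibition. They include genes that belong to unrelated pathways and would otherwise be read as members of the families below. Ptk2, encoding focal adhesion kinase, was at 2487, 2549.9 and 2486 CPM in the control libraries and 99.9, 105 and 107 CPM in the inhibition libraries (log2 fold change -4.59, SE 0.0373, edgeR adjusted p = 3.67e-22). Cox14, encoding an assembly factor of cytochrome oxidase, was at 4871, 4533 and 4210.3 CPM in control against 641, 707 and 724 CPM with inhibition. Vamp3, encoding a vesicle SNARE, fell from 4228 to 808 CPM, and Pola2, encoding a DNA polymerase alpha subunit, from 5764 to 1164 CPM. All 3 libraries of each group lay close together for these genes and the groups did not overlap. The authors' counting may split the reads of such genes with other places, so their values are uncertain. Among the genes named below that fell, whole counts in all 6 libraries were found for Ccnd2, Eno3, Epor, Gata2, Gfi1b, Gstm5, H1f0, Id3, Klf1, Lmo2, Mki67, Mt1, Mt2, Myc, Prdx4 and Zfpm1, and every other fall given below rests on fractional counts in at least 1 library.

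Transcription factors of the GATA and SCL complex list mostly fell. In it 3 of 20 tested members rose, 14 fell and 3 did not pass the test (median log2 fold change -0.48), and all 6 members with whole counts fell. Klf1, the master regulator of erythroid genes, was at 66.7, 69.7 and 71.9 CPM in the control libraries and 3.81, 4.03 and 5.65 CPM in the inhibition libraries (log2 fold change -3.94, SE 0.0902, edgeR adjusted p = 2.84e-16). Gata2, needed for stem cells and mast cells, was at 58.4, 54.8 and 56.2 CPM in the control libraries and 10.4, 8.89 and 9.35 CPM in the inhibition libraries (log2 fold change -2.57, SE 0.0673, edgeR adjusted p = 1.63e-15). Gfi1b, a repressor required for red cells and platelets, was at 92.7, 98.8 and 90.3 CPM in the control libraries and 15.98, 15.7 and 15.9 CPM in the inhibition libraries (log2 fold change -2.56, SE 0.0515, edgeR adjusted p = 5.47e-17). For each of the 3 factors every control library was several-fold above every inhibition library. Gata1 (21.6 to 2.83 CPM, log2 fold change -2.92, SE 0.0958) and its cofactor Zfpm1, encoding FOG1 (9.80 to 1.22 CPM, -3.03, SE 0.181), fell as steeply.

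Other members of the complex ranged from a steep fall to none. Ldb1, the bridging protein, went from 16.3 to 3.19 CPM (-2.36, SE 0.107 on the log2 scale) and Tal1 from 29.7 to 14.1 CPM (-1.08, SE 0.0682). Lmo2, the LIM-only bridge, was at 174, 174 and 177 CPM in control against 123.5, 129 and 125 CPM with inhibition (-0.47, SE 0.0306). Nfe2, a factor of late megakaryocytes, fell only by 0.12 on the log2 scale (71.5 to 66.0 CPM) and neither passed with GC scaling or in DESeq2 nor kept its sign in the limma fits on TPM, and Lyl1, the close relative of Tal1, averaged 24.3 CPM in control and 25.6 CPM with inhibition and did not pass the test. Fli1, an ETS factor of megakaryocytes and HSCs, fell by 0.64 (235 to 150.4 CPM). Among the 3 that rose, Gata3, better known for T cells, was at 6.01, 5.69 and 6.71 CPM in the control libraries and 19.2, 20.6 and 21.6 CPM in the inhibition libraries (log2 fold change 1.74, SE 0.0797, edgeR adjusted p = 3.28e-12), with no overlap between the groups.

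Factors of the granulocyte and monocyte programme rose. In the C/EBP and GFI1 list 8 of 12 tested members rose, 2 fell and 2 did not pass the test (median log2 fold change 0.83). Cebpe, which drives the formation of secondary granules, was at 12.9, 13.6 and 14.0 CPM in the control libraries and 42.5, 46.7 and 43.8 CPM in the inhibition libraries (log2 fold change 1.72, SE 0.0577, edgeR adjusted p = 4.64e-14). Cebpd, a factor of the acute-phase response, rose from 6.63 to 28.8 CPM (2.12, SE 0.0919), whereas Cebpa, the factor that starts the granulocyte lineage, moved only from 8.94 to 10.4 CPM (0.22, SE 0.0838) and did not pass when control library 2 or 3 or inhibition library 2 or 3 was left out. Spi1, which encodes PU.1, was at 15.4, 14.9 and 15.0 CPM in control against 37.4, 41.5 and 39.4 CPM with inhibition (1.39, SE 0.0569), and Gfi1, the antagonist of Gfi1b in lineage choice, went from 4.78 to 9.63 CPM (1.01, SE 0.115). For Cebpe, Spi1 and Gfi1 the lowest inhibition library was above the highest control library. The granulocyte-monocyte progenitor and neutrophil marker sums given above rose in the same libraries.

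**Figure D2:**
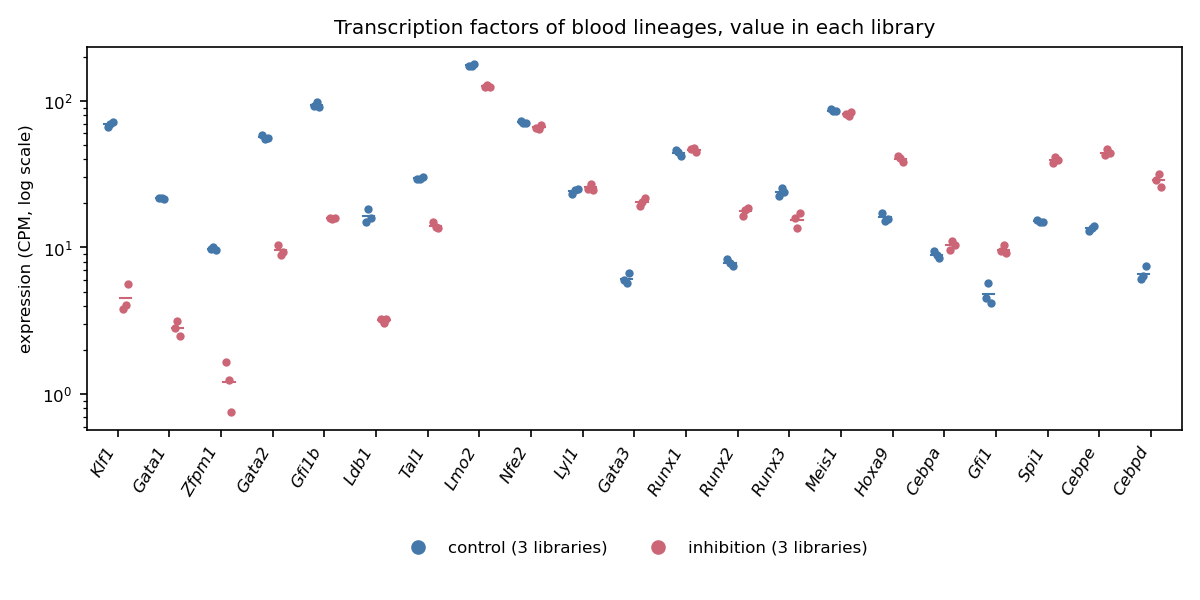
Levels of lineage factors (x axis: GATA and SCL complex, RUNX, HOX and MEIS, C/EBP, GFI1 and PU.1 genes) in each of the 6 libraries (y axis, CPM on a log scale; points are single libraries and short lines their group means). Klf1, Gata2 and Gfi1b lie lower in all 3 inhibition libraries, and Cebpe, Cebpd and Spi1 lie higher.

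The promoters of the genes were searched for short factor motifs, since factor genes of opposed lineages moved in opposite directions. Promoters are the 250 bases upstream of the RefSeq gene start on GRCm38.p6, read on both strands, and 11343 of 13710 protein-coding genes tested were matched to one by symbol, older symbol or gene ID. AGGAAGT, a PU.1-type motif, was in 11.9% of genes higher by 2-fold or more and in 6.17% of genes lower by 2-fold or more, against 7.60% of all matched genes and 7.81% of all 27018 promoters in the table. The C/EBP motif TTGCNNAA was in 11.8% of genes higher and 7.68% of genes lower by 2-fold or more, 8.15% of all matched genes and 9.56% of all promoters. The GATA motif AGATAA was in 8.91% of genes higher and 7.99% of genes lower by 2-fold or more, 7.28% of all matched genes and 10.3% of all promoters. Other motifs searched were also more frequent in genes higher than in genes lower by 2-fold or more: the GATA variant TGATAA (6.86% and 5.29%), the RUNX motif TGTGGT (13.7% and 9.75%) and the AP-1 motif TGANTCA (6.92% and 5.41%), and the TATA motif TATAAA was more frequent as well.

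Motifs of housekeeping promoters went the other way. CCGGAAG, a motif of ETS factors such as GABPA that shares the letters GGAAG with AGGAAGT but cannot match the same bases, was in 5.64% of genes higher and 10.5% of genes lower by 2-fold or more. It was in 12.7% of all matched genes and 7.05% of all promoters. It was most frequent among genes that changed by less than 2-fold, at 17.3% of those lower and 15.4% of those higher. The NRF1 motif GCGCATG was in 2.88% of genes higher and 4.47% of genes lower by 2-fold or more, 5.33% of all matched genes and 3.32% of all promoters. Promoters with at least 12 CG dinucleotides made up 41.0% of genes higher by 2-fold or more, 55.9% of genes lower by 2-fold or more, and 59.7% of all matched genes. A match is a run of letters, not a bound site, and these shares have no test.

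**Figure D3:**
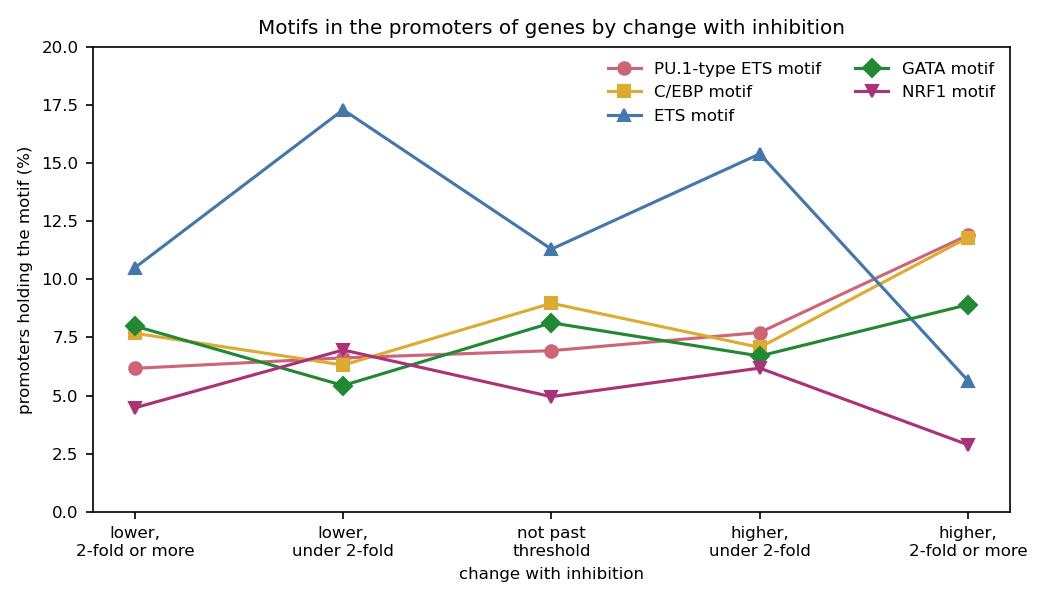
Percent of promoters holding each motif (y axis) in 5 sets of genes ordered from lower by 2-fold or more to higher by 2-fold or more with inhibition (x axis). The PU.1-type motif AGGAAGT runs from 6.17% to 11.9% across the sets and the ETS motif CCGGAAG from 10.5% to 5.64%, with its peak of 17.3% in the set lower by less than 2-fold.

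Promoters of 4 genes are shown because they are at the extremes of fold change among the named genes that hold these motifs, from RefSeq on GRCm38.p6, 5′ to 3′ on the gene's strand, with the motif in capitals. Ly6g at chr15:75155011-75155260 on the plus strand and C5ar1 at chr7:16259339-16259588 on the minus strand hold AGGAAGT, the latter in 2 places as its reverse complement. Mmp8 at chr9:7558179-7558428 on the plus strand holds AGGAAGT as its reverse complement. Abcb9 at chr5:124095799-124096048 on the minus strand holds CCGGAAG. Ly6g, a surface antigen of neutrophils, was at 0.485, 0.107 and 0.206 CPM in the control libraries and 35.1, 34.5 and 36.6 CPM in the inhibition libraries, and Mmp8, neutrophil collagenase, at 2.37, 1.29 and 2.12 CPM in the control libraries and 139.8, 138 and 135 CPM in the inhibition libraries. Abcb9, a peptide transporter of lysosomes with fractional counts, was at 28.1, 25.05 and 22.1 CPM in the control libraries and 3.13, 2.58 and 3.20 CPM in the inhibition libraries. Ly6g and C5ar1 were near the floor in control, Mmp8 was low but above it, and Abcb9 was the only 1 of the 4 to fall.
Ly6g: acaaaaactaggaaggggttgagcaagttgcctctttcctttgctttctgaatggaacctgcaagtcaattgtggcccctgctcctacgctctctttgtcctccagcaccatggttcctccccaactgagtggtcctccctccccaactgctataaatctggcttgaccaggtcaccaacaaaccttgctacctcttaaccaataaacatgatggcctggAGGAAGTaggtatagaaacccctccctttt
C5ar1: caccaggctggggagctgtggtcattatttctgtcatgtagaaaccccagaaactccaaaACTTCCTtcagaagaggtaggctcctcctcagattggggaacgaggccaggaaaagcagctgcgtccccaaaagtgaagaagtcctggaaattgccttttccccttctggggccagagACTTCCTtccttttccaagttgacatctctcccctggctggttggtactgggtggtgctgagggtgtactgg
Mmp8: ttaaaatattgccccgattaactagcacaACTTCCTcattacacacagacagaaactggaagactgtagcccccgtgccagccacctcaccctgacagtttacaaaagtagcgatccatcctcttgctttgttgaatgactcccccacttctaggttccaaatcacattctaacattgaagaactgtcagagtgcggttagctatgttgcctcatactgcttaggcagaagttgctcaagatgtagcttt
Abcb9: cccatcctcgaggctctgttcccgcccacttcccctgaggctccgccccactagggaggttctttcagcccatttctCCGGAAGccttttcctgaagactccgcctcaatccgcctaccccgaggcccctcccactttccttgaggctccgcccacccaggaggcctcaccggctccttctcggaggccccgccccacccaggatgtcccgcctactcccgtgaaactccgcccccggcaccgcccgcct

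Stem-cell factors split. In the HOX, MEIS and PBX list 12 of 20 tested members rose, 3 fell and 5 did not pass the test (median log2 fold change 0.85). Hoxa9, a self-renewal factor, was at 17.1, 15.2 and 15.7 CPM in the control libraries and 41.9, 40.7 and 38.5 CPM in the inhibition libraries (log2 fold change 1.34, SE 0.0559, edgeR adjusted p = 9.19e-13). Its partner Meis1 averaged 85.8 ± 1.82 CPM in control and 81.3 ± 2.32 CPM with inhibition (mean ± SD, n = 3 libraries each) and did not pass the test. Runx1 (44.2 to 46.5 CPM) and Myb (206 to 201 CPM), both needed for definitive haematopoiesis, did not pass either. Of 166 genes given with values, 3 passed with GC scaling but not in the first fit. Not passing therefore does not show an unchanged level. Among Ikaros, E protein and ID factors 14 of 21 rose and 4 fell of those tested (with GC scaling 10 rose and 5 fell). Satb1, a chromatin organiser of lymphoid progenitors, was at 6.19, 5.47 and 5.73 CPM in control against 30.2, 29.6 and 31.3 CPM with inhibition. Id2 (81.9 to 168 CPM) and Id3 (22.8 to 10.9 CPM), which both block E proteins, moved in opposite directions (1.04, SE 0.0326 and -1.08, SE 0.0685), and the E protein gene Tcf3 fell from 14.1 to 3.67 CPM (-1.95, SE 0.104).

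In the MYC and MAX network 6 of 12 rose and 5 fell. Mxd1, a MAX partner that opposes MYC and is found in maturing myeloid cells, was at 24.2, 24.4 and 25.8 CPM in the control libraries and 141, 138 and 138 CPM in the inhibition libraries (log2 fold change 2.48, SE 0.0385, edgeR adjusted p = 2.22e-18). Myc itself was at 117, 119 and 122.5 CPM in control against 80.8, 79.8 and 76.0 CPM with inhibition (-0.60, SE 0.0355) and Mycn fell from 17.0 to 6.70 CPM. The MYC antagonist thus rose in all 3 inhibition libraries in which both MYC genes fell. Of the IRF factors 2 of 9 rose and 5 fell, and of the 2 with whole counts 2 rose and 0 fell. Irf7, the amplifier of interferon genes, was at 32.6, 30.7 and 29.8 CPM in control against 5.47, 5.94 and 5.00 CPM with inhibition, with Irf3 also lower (19.3 to 9.09 CPM). ETS factors leaned upward (10 of 18 rose and 5 fell) although the abundant Elf1 fell (308 to 169 CPM, with fractional counts).

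Receptors for cytokines and for bacterial products had more members higher than lower. Of haematopoietic cytokine receptors 27 of 41 tested members rose, 11 fell and 3 did not pass the test (median log2 fold change 0.70). Il1r1, the signalling receptor for interleukin 1, was at 1.46, 1.72 and 1.65 CPM in the control libraries and 17.8, 17.99 and 16.9 CPM in the inhibition libraries (log2 fold change 3.44, SE 0.0949, edgeR adjusted p = 3.21e-15). Csf3r, the G-CSF receptor, rose from 5.45 to 19.9 CPM, Csf2rb, the common beta chain for GM-CSF and interleukin 3 and 5, from 8.50 to 37.0 CPM, and Il2rg, the common gamma chain, from 93.4 to 326 CPM. Not all receptors rose. Epor, the erythropoietin receptor, was at 9.46, 8.47 and 9.18 CPM in the control libraries and 0.492, 0.374 and 0.550 CPM in the inhibition libraries (log2 fold change -4.26, SE 0.196, edgeR adjusted p = 3.31e-12). Epor showed a wide gap between the groups, with no overlap of libraries.

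Chemoattractant receptors leaned the same way (15 of 28 rose and 7 fell of those tested), and all 8 that passed among 9 with whole counts rose. Fpr1, a receptor for formylated bacterial peptides, was at 0.849, 0.858 and 0.980 CPM in the control libraries and 50.1, 47.1 and 49.2 CPM in the inhibition libraries (log2 fold change 5.75, SE 0.0907, edgeR adjusted p = 2.67e-18). C5ar1, the receptor for complement C5a whose promoter is printed with the motifs, was at 0.243, 0.322 and 0.516 CPM in the control libraries and 32.2, 30.5 and 34.1 CPM in the inhibition libraries (log2 fold change 6.43, SE 0.135, edgeR adjusted p = 9.08e-17), and its control libraries were within a few counts of the floor. Cxcr4, which holds HSCs in the marrow, was at 9.71, 9.17 and 10.9 CPM in the control libraries and 33.3, 30.5 and 31.8 CPM in the inhibition libraries (log2 fold change 1.67, SE 0.0692, edgeR adjusted p = 7.82e-13). In this list Cxcr2, the receptor for neutrophil-attracting chemokines, fell from 362 to 58.2 CPM (-2.63, SE 0.0653), against the direction of the other neutrophil markers, and it has fractional counts.

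Among Toll-like receptors and innate sensors 18 of 28 rose and 6 fell of those tested. The summed level of the list nevertheless went down, from 478.7 CPM in control to 364.2 CPM with inhibition. In it 3 members were lower by 2-fold or more, and of the 10 with whole counts 8 rose and 1 fell. Cd14, the co-receptor for endotoxin, was at 6.43, 7.19 and 7.58 CPM in the control libraries and 61.6, 60.9 and 58.5 CPM in the inhibition libraries (log2 fold change 3.09, SE 0.0612, edgeR adjusted p = 4.63e-17), while Sting1, the sensor adaptor for cyclic dinucleotides, went from 9.86 to 50.3 CPM and Myd88, the adaptor of most Toll-like receptors, from 13.7 to 29.2 CPM. Fc and paired immunoglobulin-like receptors had 32 of 44 tested members higher and 4 lower, with a median of 2.27. Treml1, a receptor of platelet granules, was an exception with fractional counts (12.6 to 1.34 CPM, -3.20, SE 0.129). C-type lectins moved both ways (11 of 21 rose and 7 fell). Clec5a, on myeloid cells, was at 34.8, 34.8 and 34 CPM in control against 250.2, 247 and 247 CPM with inhibition, and Clec1b, the platelet receptor CLEC-2, at 38.1, 36.6 and 38.1 CPM in control against 3.01, 3.20 and 2.75 CPM with inhibition. Neither gene had overlapping groups.

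Of the MS4A family 10 of 12 tested members rose and none fell, led in level by Ms4a3, a marker of granulocyte-monocyte progenitors (675 to 2051 CPM). Enzymes of eicosanoid synthesis also rose (11 of 18 rose and 3 fell of those tested). Alox5ap, which presents arachidonic acid to lipoxygenase, was at 315, 323 and 306 CPM in the control libraries and 855, 856 and 869 CPM in the inhibition libraries (log2 fold change 1.45, SE 0.0281, edgeR adjusted p = 3.56e-17), and Lta4h, the last enzyme of leukotriene B4 synthesis, went from 155 to 434 CPM (1.48, SE 0.0285). Ltb4r1, the receptor for that leukotriene, was at 2.79, 2.90 and 2.58 CPM in control against 7.68, 8.27 and 9.85 CPM with inhibition. Alox5ap, Lta4h and Ltb4r1 of the leukotriene route were thus each higher, with groups apart. Other genes of the route are not reported here.

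The Notch, Wnt and BMP list held 19 members higher and 8 lower of 39. Hes1, a classical Notch target, was at 1.03, 1.02 and 1.08 CPM in the control libraries and 14.4, 15.6 and 13.3 CPM in the inhibition libraries (log2 fold change 3.79, SE 0.133, edgeR adjusted p = 8.48e-14), and Jag1, a Notch ligand, at 2.18, 1.82 and 1.60 CPM in the control libraries and 14.8, 15.1 and 13.6 CPM in the inhibition libraries (log2 fold change 2.96, SE 0.127, edgeR adjusted p = 1.31e-12). Rbpj, which encodes the DNA-binding factor of the pathway, fell from 174 to 44.3 CPM (-1.97, SE 0.0465) and has fractional counts. Among TNF receptors 12 of 20 rose and 2 fell, with Cd27, found on multipotent progenitors and lymphocytes, at 11.7, 10.6 and 11.4 CPM in control against 39.3, 40.0 and 41.4 CPM with inhibition. All 5 multipotent progenitor markers, of which Cd27 is 1, were higher (244 to 261 against 447 to 453 CPM in sum).

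Integrins had more members lower than higher (4 of 19 rose and 9 fell of those tested), with a median of -0.01, and of the 6 with whole counts 3 rose and 1 fell. Itga2b, the platelet integrin alpha chain CD41, was at 31.4, 30.2 and 32.5 CPM in the control libraries and 3.56, 3.61 and 4.05 CPM in the inhibition libraries (log2 fold change -3.06, SE 0.0831, edgeR adjusted p = 2.59e-15). Itgam, the alpha chain CD11b of myeloid cells, was at 1.70, 1.77 and 0.980 CPM in control against 15.3, 13.7 and 16.4 CPM with inhibition, and its beta chain Itgb2 at 7.58, 8.31 and 7.64 CPM in control against 23.5, 21.1 and 25.5 CPM with inhibition. Among tetraspanins (11 of 23 rose and 9 fell) the leucocyte gene Cd53 was at 128, 128 and 131 CPM in the control libraries and 668, 626 and 666 CPM in the inhibition libraries (log2 fold change 2.34, SE 0.0342, edgeR adjusted p = 1.01e-18), and Cd9, abundant in megakaryocytes and HSCs, at 733, 717 and 711 CPM in control against 305, 309.8 and 308 CPM with inhibition (-1.23, SE 0.0268). The groups did not overlap for any of these 5 genes.

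**Figure D4:**
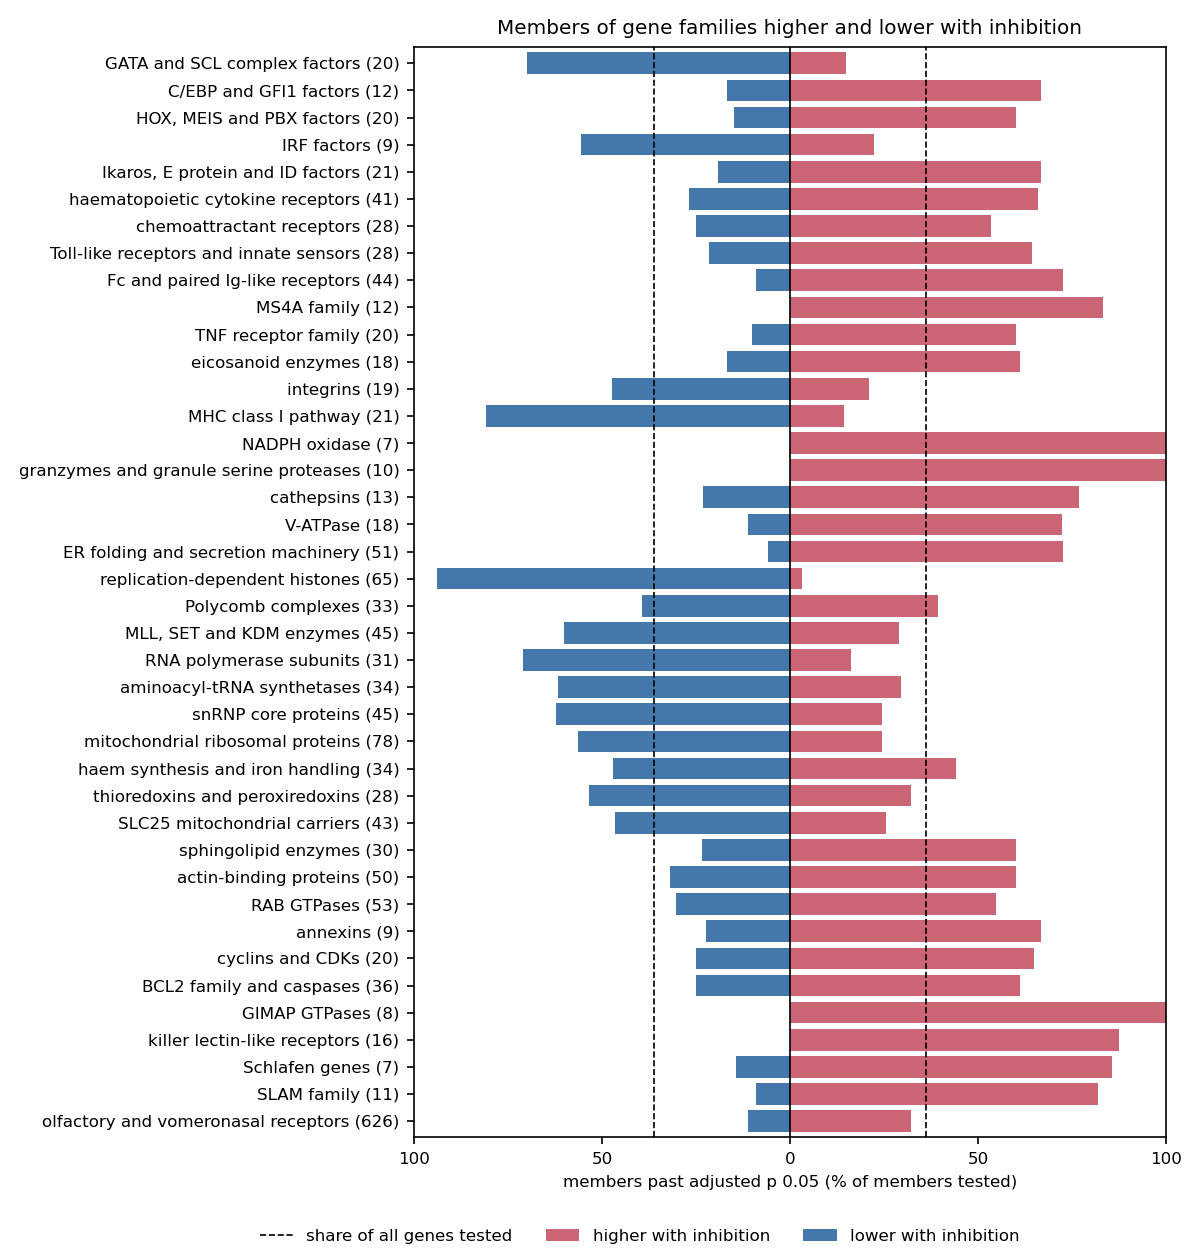
Members higher (right) and lower (left) with inhibition as a percent of tested members (x axis) in 40 gene families (y axis), beside the share over all genes tested (36.2% higher, 36.1% lower, dashed lines). NADPH oxidase, granule proteases and GIMAP GTPases have every member higher, and replication-dependent histones have 61 of 65 lower.

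The NADPH oxidase, which makes superoxide in phagocytes, rose in every subunit tested (7 of 7), against 36.2% of all genes. Cybb, the catalytic subunit gp91phox, was at 9.40, 8.15 and 9.23 CPM in the control libraries and 200.04, 198 and 191 CPM in the inhibition libraries (log2 fold change 4.46, SE 0.0488, edgeR adjusted p = 2.27e-20). Its membrane partner Cyba went from 219.8 to 524 CPM (1.26, SE 0.0309). Of the cytosolic subunits, Ncf4 was at 43.2, 40.8 and 42.2 CPM in control against 202, 214 and 209.6 CPM with inhibition (2.31, SE 0.0367), and Ncf1 rose from 15.7 to 62.5 CPM. Of the GTPases of the complex, Rac2, the form of blood cells, rose from 124 to 324 CPM (1.38, SE 0.0308) and the ubiquitous Rac1 only from 210.3 to 244 CPM (0.21, SE 0.0302). Cybb had the largest and Rac1 the smallest change of the 7, with no test between subunits.

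All 10 granzymes and granule serine proteases tested rose. Elane, neutrophil elastase, was at 3086, 3033 and 2898 CPM in the control libraries and 8890.1, 8774 and 9269.8 CPM in the inhibition libraries (log2 fold change 1.58, SE 0.0320, edgeR adjusted p = 6.24e-17). Prss57, a further serine protease of the azurophil granule, was at 47.3, 53.1 and 53.0 CPM in control against 176, 180.1 and 182 CPM with inhibition, and Mcpt8, a basophil protease, at 61.6, 58.9 and 57.5 CPM in control against 169, 175 and 177 CPM with inhibition. Elane and Mcpt8 have whole counts and are markers of the progenitor and basophil lists. Of serpins, most of which inhibit serine proteases, 9 of 17 rose and 7 fell (with GC scaling 6 rose and 7 fell), and Serpinb1a, an inhibitor of elastase, was at 497, 507 and 489.9 CPM in control against 1948, 1917 and 1923 CPM with inhibition (1.95, SE 0.0261).

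Lysosomal genes, and inhibitors of cysteine proteases, leaned higher. Of stefins and cystatins, which inhibit cysteine proteases such as cathepsins, 9 of 11 rose and 1 fell. Their median log2 fold change was 3.90, but their summed level went only from 1514 to 1663 CPM. Of the cathepsins 10 of 13 rose, including all 6 with whole counts. Ctsc, which activates the granule proteases, was at 78.6, 79.3 and 75.2 CPM in control against 216, 215 and 208 CPM with inhibition, and Ctss at 24.9, 23.3 and 25.4 CPM in control against 77.1, 74.0 and 73.9 CPM with inhibition (1.61, SE 0.0457). Subunits of the V-ATPase, the proton pump that acidifies lysosomes and granules, had 13 of 18 higher and 2 lower. Atp6ap2, an accessory subunit, was at 90.9, 91.3 and 95.8 CPM in the control libraries and 279.9, 266 and 264 CPM in the inhibition libraries (log2 fold change 1.54, SE 0.0342, edgeR adjusted p = 2.06e-16). Atp6v0e2, a membrane-domain subunit with fractional counts, went from 284 to 35.0 CPM (-3.02, SE 0.0528).

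Machinery of the endoplasmic reticulum (ER) for folding and secretion was among the most one-sided large families: 37 of 51 tested members rose, 3 fell and 11 did not pass the test (median log2 fold change 0.33). With GC scaling 35 rose and 8 fell, and among the 19 members with whole counts 15 rose and 1 fell. P4hb, encoding protein disulphide isomerase, was at 183, 185 and 191 CPM in the control libraries and 453, 465 and 463 CPM in the inhibition libraries (log2 fold change 1.31, SE 0.0301, edgeR adjusted p = 3.10e-16). Creld2 rose from 48.9 to 128 CPM and Pdia4 from 20.03 to 57.6 CPM, both helpers of disulphide formation, and Ssr1, a subunit of the translocon-associated complex, from 1239.2 to 2678 CPM. The plasma-cell markers, whose sum is given above, and the granule protein genes were higher in the same libraries. Of the chaperonin CCT subunits 7 of 9 rose and 2 fell, whereas heat shock proteins were mixed (33 of 73 rose and 23 fell). The summed CCT level went down, from 3688 to 2965 CPM, with 1 subunit lower and 0 higher by 2-fold or more.

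Replication-dependent histone genes were the most one-sided of the families with 10 or more members in the other direction. Of 65 tested, 61 fell, 2 rose and 2 stayed short of the threshold. The median log2 fold change was -2.03, against 36.1% lower and a median of 0.02 over all genes. These genes lack introns and polyA tails, are near-identical in coding sequence, and only 1 had whole counts. Their median transcript GC content was 57.9%, and with GC scaling 2 rose and 60 fell. H1f5, a linker histone, was at 97.5, 93.3 and 99.2 CPM in the control libraries and 12.8, 13.1 and 11.8 CPM in the inhibition libraries (log2 fold change -2.94, SE 0.0600, edgeR adjusted p = 6.57e-17), and H2ac20 at 74.0, 71.8 and 68.9 CPM in control against 6.70, 8.85 and 7.25 CPM with inhibition. The polyadenylated linker histone gene H1f0, which has whole counts and is not tied to replication, was at 140.2, 135 and 140.0 CPM in control against 71.1, 72.0 and 67.9 CPM with inhibition (-0.97, SE 0.0420).

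Division genes did not show this one-sided count. Of cyclins and CDKs 13 of 20 rose and 5 fell of those tested. Cdk1, the mitotic kinase, was at 77.3, 75.1 and 77.7 CPM in the control libraries and 130.1, 126 and 124 CPM in the inhibition libraries (log2 fold change 0.72, SE 0.0366, edgeR adjusted p = 1.29e-11), and Mki67, a proliferation marker, at 87.7, 87.0 and 86.9 CPM in control against 75.7, 74.8 and 67.7 CPM with inhibition (-0.26, SE 0.0436). Rrm2, the S-phase subunit of ribonucleotide reductase, went from 77.1 to 209 CPM (1.44, SE 0.0411). Cdkn1b, the inhibitor p27, was at 90.3, 101 and 102 CPM in control against 153, 151 and 139 CPM with inhibition (0.60, SE 0.0458), Ccnd2, a G1 cyclin, at 302, 297 and 301 CPM in control against 201, 211 and 199.6 CPM with inhibition (-0.55, SE 0.0307), and Cdk6, its partner, at 3180.2, 3224 and 3234 CPM in control against 2666, 2677 and 2676 CPM with inhibition (-0.27, SE 0.0228). Replication origin factors (15 of 46 rose and 18 fell) were close to the background. Kinetochore, cohesin and condensin genes leaned lower (18 of 54 rose and 25 fell), and with GC scaling 13 rose and 26 fell. Division genes therefore moved both ways, most of them by less than 2-fold among those named.

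Genes for making RNA and protein leaned lower. Of RNA polymerase subunits 5 of 31 tested members rose, 22 fell and 4 did not pass the test (median log2 fold change -0.35), and with GC scaling 7 rose and 17 fell. Polr2l, a small subunit shared by the polymerases, was at 372, 359 and 342 CPM in control against 153, 167 and 164 CPM with inhibition (-1.15, SE 0.0392), and Polr2g, which rose, at 147, 151 and 149 CPM in control against 233, 233 and 235 CPM with inhibition (0.65, SE 0.0294). Translation elongation factors had 10 of 14 lower, with Eef2, the translocase, at 234, 225 and 211 CPM in the control libraries and 68.0, 69.2 and 71.4 CPM in the inhibition libraries (log2 fold change -1.68, SE 0.0402, edgeR adjusted p = 4.89e-16). The whole-count members of this list were split, with 2 higher and 1 lower. Aminoacyl-tRNA synthetases (10 of 34 rose and 21 fell), with Vars, the valine enzyme, at 54.9, 52.6 and 53.6 CPM in control against 13.5, 13.5 and 13.4 CPM with inhibition (-1.99, SE 0.0622), and mitochondrial ribosomal proteins (19 of 78 rose and 44 fell) leaned the same way. Against this lean, of the 6 with whole counts 5 rose and 1 fell among the synthetases. For the mitochondrial list, GC scaling narrowed the gap (25 rose and 34 fell).

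Splicing factors and helicases also had more members lower than higher. Of snRNP core proteins 11 of 45 rose and 28 fell, and of hnRNP proteins 8 of 27 rose and 15 fell. Of DEAD and DEAH helicases 12 of 52 rose and 28 fell. The summed level went down for snRNP core proteins (7687 to 6530 CPM) and hnRNP proteins (7016 to 6769 CPM). For the helicases it went up, from 1996 to 2117 CPM. Chromatin enzymes of the MLL, SET and KDM list had 27 of 45 lower. Kdm5a, a demethylase of H3K4, was at 309, 289 and 269.7 CPM in control against 91.7, 96.2 and 95.1 CPM with inhibition (-1.61, SE 0.0511), and Hdac7, a class IIa deacetylase, at 31.5, 31.8 and 31.5 CPM in control against 5.16, 4.65 and 5.90 CPM with inhibition (-2.60, SE 0.0776). Both have fractional counts. Polycomb genes divided evenly (13 of 33 rose and 13 fell).

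The MHC class I pathway, which shows peptides to T cells, fell: 3 of 21 tested members rose, 17 fell and 1 did not pass the test (median log2 fold change -0.69). With GC scaling 4 rose and 14 fell. The light chain gene B2m was at 7109, 7191 and 7196 CPM in the control libraries and 4768, 4639 and 4709 CPM in the inhibition libraries (log2 fold change -0.61, SE 0.0229, edgeR adjusted p = 2.30e-13). Of the heavy chains, H2-K1 was at 504, 523 and 507 CPM in control against 315, 313 and 321 CPM with inhibition (-0.69, SE 0.0285), H2-D1 went from 643 to 425 CPM, and the non-classical H2-T23, encoding Qa-1, from 732 to 209 CPM (-1.81, SE 0.0426). Heavy-chain genes are near-identical copies that share reads. The peptide transporter Tap1 was at 36.1, 34.1 and 35.4 CPM in control against 12.0, 12.6 and 12.2 CPM with inhibition (-1.52, SE 0.0589), the immunoproteasome subunit Psmb9 at 139, 143 and 129.5 CPM in control against 93.5, 91.3 and 96.8 CPM with inhibition (-0.55, SE 0.0395), and Psmb8 only moved from 583 to 531 CPM (-0.13, SE 0.0339), a sign that turned to 0.19 with GC scaling and also turned in both limma fits on TPM. Erap1, which trims the peptides, rose (12.2 to 31.0 CPM). Of the 17 members that fell, 9 fell by 2-fold or more, and only 1 member of the list had whole counts. The other 2 that rose were the non-classical heavy chain H2-M3 (13.8 to 22.2 CPM, 0.68, SE 0.0632) and the peptide-loading chaperone Tapbp (92.9 to 111 CPM, 0.26, SE 0.0364).

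Several other immune gene families rose. Schlafen genes had 6 of 7 higher, with Slfn1 at 1.46, 0.858 and 1.08 CPM in the control libraries and 34.7, 37.0 and 36.1 CPM in the inhibition libraries (log2 fold change 5.00, SE 0.106, edgeR adjusted p = 1.10e-16). Slfn5, with fractional counts, was the 1 that fell (404 to 68.5 CPM). All 8 GIMAP GTPases, which affect lymphocyte survival, rose, Gimap6 from 12.0 to 84.0 CPM (2.81, SE 0.0540) and Gimap9 from 34.7 to 45.1 CPM (0.38, SE 0.0418). The IFITM, IFI and ISG list was mixed, with 19 of 40 tested members higher and 14 lower (with GC scaling 18 rose and 15 fell). Ifitm6 was at 9.58, 11.4 and 10.3 CPM in control against 423, 416 and 426 CPM with inhibition (5.33, SE 0.0499), Ifitm1 rose from 250.2 to 1629.9 CPM, and Ifitm3 fell from 1374 to 1115 CPM, all encoding membrane proteins related to virus restriction. Killer lectin-like receptors had 14 of 16 higher and 0 lower (with GC scaling 14 rose and 1 fell). The 9 NK-cell markers listed, of which 7 were tested, summed to 1284 to 1365 CPM in control and 1927 to 2036 CPM with inhibition. The 11 T-cell markers listed, of which 7 were tested, summed to 8.20 to 9.40 and 29.6 to 32.6 CPM.

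The LY6 family had 9 of 13 members higher. Ly6a, the HSC antigen Sca-1, was at 6.49, 6.06 and 6.09 CPM in the control libraries and 81.2, 83.4 and 86.0 CPM in the inhibition libraries (log2 fold change 3.75, SE 0.0519, edgeR adjusted p = 5.45e-19), and Ly6d, a marker of lymphoid progenitors, at 9.46, 10.4 and 10.8 CPM in the control libraries and 143, 143 and 157 CPM in the inhibition libraries (log2 fold change 3.85, SE 0.0586, edgeR adjusted p = 1.74e-18). In the SLAM family 9 of 11 rose and 1 fell, and the 1 lower member was Slamf1 (CD150), an antigen in common use for sorting HSCs, at 109, 102 and 102 CPM in the control libraries and 15.3, 17.6 and 20 CPM in the inhibition libraries (log2 fold change -2.56, SE 0.0677, edgeR adjusted p = 1.86e-15). Sca-1 and CD150 thus changed in opposite directions, and both carry fractional counts.

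Haem and iron genes were split. In the list 15 of 34 rose and 16 fell of those tested. Cpox, an enzyme of haem synthesis, was at 918, 943 and 866 CPM in the control libraries and 136, 142 and 134 CPM in the inhibition libraries (log2 fold change -2.73, SE 0.0406, edgeR adjusted p = 1.25e-18) with fractional counts, and Blvrb, biliverdin reductase B of red cells, at 224, 222 and 216 CPM in control against 31.6, 29.0 and 34.3 CPM with inhibition (-2.81, SE 0.0485). Alas1, the first enzyme of haem synthesis outside red cells, rose from 31.5 to 78.1 CPM. Its red-cell relative Alas2 also rose, at a low level (0.394 to 2.52 CPM, 2.615, SE 0.291 on the log2 scale). Abcb10, a mitochondrial transporter needed for haem synthesis, was at 7.04, 7.35 and 6.96 CPM in the control libraries and 113, 115 and 121 CPM in the inhibition libraries (log2 fold change 4.03, SE 0.0695, edgeR adjusted p = 8.11e-18). The 17 erythroid markers, of which 10 were lower and 7 higher, summed to 3785 to 3846 CPM in control and 1488 to 1522 CPM with inhibition. Metallothioneins fell in both members tested, steeply for Mt2 (63.0, 59.96 and 64.1 CPM in control against 7.31, 7.77 and 7.55 CPM with inhibition) and by 0.35 on the log2 scale for Mt1 (682 to 535 CPM).

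Single enzymes that supply reducing power rose, while the pentose phosphate list was mixed (4 of 8 rose and 3 fell). Idh1, which makes cytosolic NADPH, was at 45.2, 46.6 and 44.5 CPM in the control libraries and 176, 164 and 169.6 CPM in the inhibition libraries (log2 fold change 1.90, SE 0.0375, edgeR adjusted p = 4.49e-17), G6pdx, the entry enzyme of the pentose phosphate pathway, at 12.1, 13.2 and 12.2 CPM in control against 32.0, 33.1 and 33.6 CPM with inhibition (1.39, SE 0.0654), and Gsr, glutathione reductase, at 59.1, 61.6 and 61.9 CPM in control against 187, 183 and 169 CPM with inhibition (1.56, SE 0.0421). Glrx, glutaredoxin, rose from 40.5 to 161 CPM. Peroxidases moved both ways. Gpx4, which protects lipids, fell from 595 to 339 CPM (-0.81, SE 0.0278) and Prdx4, the ER peroxiredoxin, from 110.2 to 48.3 CPM (-1.19, SE 0.0376), and the mitochondrial Prdx5 rose (210.0 to 546 CPM). As a list thioredoxins and peroxiredoxins leaned lower (9 of 28 rose and 15 fell). Mgst1, a membrane glutathione transferase, was at 66.5, 66.0 and 67.6 CPM in control against 377, 373 and 365 CPM with inhibition (2.48, SE 0.0313). The 3 NADPH and glutathione enzymes have groups far apart in every library.

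Synthetic pathways for nucleotides (17 of 28 rose and 8 fell), the TCA cycle (16 of 26 rose and 7 fell) and sphingolipids (18 of 30 rose and 7 fell) leaned higher. In the last, Asah1, acid ceramidase of the lysosome, was at 48.5, 45.3 and 53.9 CPM in control against 149, 146 and 148 CPM with inhibition (1.58, SE 0.0489). Amino acid transporters (8 of 35 rose and 17 fell) and mitochondrial carriers (11 of 43 rose and 20 fell) leaned lower. Slc14a1, the urea transporter of red cells, fell from 90.1 to 11.5 CPM (-2.96, SE 0.0530).

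Genes of the actin cytoskeleton, on which migration and phagocytosis depend, rose more often than they fell. Of actin-binding proteins 30 of 50 tested members rose, 16 fell and 4 did not pass the test (median log2 fold change 0.43), and of Arp2/3, WAVE and formin genes 19 of 33 rose and 10 fell. Lcp1, L-plastin of leucocytes, was at 34.1, 36.5 and 34.5 CPM in the control libraries and 188, 181 and 182 CPM in the inhibition libraries (log2 fold change 2.39, SE 0.0386, edgeR adjusted p = 3.70e-18), Actr3, a core of the Arp2/3 complex, at 119.5, 122 and 118 CPM in control against 327, 305 and 307 CPM with inhibition (1.39, SE 0.0338), and Twf1, twinfilin, at 188, 199 and 192 CPM in control against 546, 533 and 536 CPM with inhibition (1.48, SE 0.0349). All 3 genes were higher in every inhibition library. Arhgdib, a regulator of small GTPases in blood cells, was already abundant in control and went from 4283 to 9450.0 CPM (1.14, SE 0.0286). Enah, which extends actin filaments, fell (66.4 to 20.6 CPM). Tubulins and stathmin leaned lower (6 of 17 rose and 11 fell), but with GC scaling 8 rose and 7 fell.

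Membrane-traffic genes were mixed, with RAB GTPases higher (29 of 53 rose and 16 fell) and SNARE proteins near the background (14 of 44 rose and 17 fell). Annexins, which bind membranes in a calcium-dependent way, had 6 of 9 higher. Anxa1, which dampens neutrophil recruitment, was at 333, 346 and 358 CPM in the control libraries and 4231, 4138 and 4011 CPM in the inhibition libraries (log2 fold change 3.58, SE 0.0330, edgeR adjusted p = 2.37e-21), and Anxa2 at 78.7, 84.5 and 86.4 CPM in control against 262, 260.2 and 271 CPM with inhibition (1.67, SE 0.0403). Both genes have whole counts in all 6 libraries and groups without overlap.

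The list of the BCL2 family and caspases, which holds survival and death genes, leaned higher (22 of 36 rose and 9 fell). Mcl1, a short-lived survival factor of myeloid cells and HSCs, was at 64.9, 69.9 and 68.6 CPM in the control libraries and 178, 171 and 170.1 CPM in the inhibition libraries (log2 fold change 1.35, SE 0.0368, edgeR adjusted p = 2.72e-15). Casp1, the inflammasome protease, rose from 70.5 to 142 CPM (1.01, SE 0.0368). For both genes the groups did not overlap.

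Families that belong to other tissues gave a different picture. Of 626 olfactory and vomeronasal receptor genes that passed the filter, of 1119 listed, 201 rose, 70 fell and 355 stayed short of the threshold. The median was 0.39. The summed level of all 1119 nevertheless went down, from 1347 CPM in control to 1126 CPM with inhibition. Transcripts of the 626 have a median GC content of 39.0%, in the range of the lowest bin. With GC scaling 107 rose and 107 fell, and the median was 0.05. The larger count changed direction with this scaling in 5 of the 110 families. KRAB and other Zfp genes, listed here as transcription factors, are not among these families. They had more members lower in both fits, going from 110 higher and 127 lower to 78 and 148 of 352.

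Within 41 groups of close relatives fixed as lists, 22 of the 40 with at least 2 tested members held 1 member that rose and another that fell. With 36.2% of all genes higher and 36.1% lower, unrelated genes put in groups would also often hold one of each, so nothing about relatives is read from this count. Several pairs changed places by abundance per transcript length, measured in TPM (length-scaled transcript abundance). Rrm2, the S-phase subunit of ribonucleotide reductase, went from 25.5 to 73.1 TPM, while Rrm2b, its relative used outside S phase, went from 71.8 to 15.4 TPM. Rab27a, which moves granules in myeloid and cytotoxic cells, went from 4.09 to 12.1 TPM, and Rab27b, the form of megakaryocytes and mast cells, from 19.1 to 3.65 TPM. In both pairs the less abundant gene in control was the more abundant one with inhibition. The log2 fold changes in counts were -1.99, SE 0.0671 for Rrm2b, 1.58, SE 0.0470 for Rab27a and -2.40, SE 0.0534 for Rab27b.

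The same exchange was seen in signalling and metabolic pairs. Prkcb, a protein kinase C of lymphoid and myeloid cells, went from 1.00 to 7.75 TPM and Prkca from 14.4 to 4.58 TPM. Gata3 went from 2.05 to 5.996 TPM, against 15.99 to 2.69 TPM for Gata2 and 11.5 to 2.03 TPM for Gata1. Blvra, the main biliverdin reductase, went from 64.4 to 77.3 TPM and Blvrb from 192 to 31.0 TPM. The muscle form Eno3 of enolase fell from 2.79 to 0.540 TPM while the general form Eno1 rose from 34.3 to 86.0 TPM, and the red-cell pyruvate kinase Pklr fell from 4.199 to 0.477 TPM while Pkm rose from 10.6 to 23.6 TPM. For the enolases and pyruvate kinases the more abundant member was the same in both groups, and the gap widened. Rrm2b, Rab27a, Rab27b, Prkca, Prkcb and Eno1 carry fractional counts.

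Opposite changes were also found among myosin and tropomyosin genes. Myh9, the main non-muscle myosin heavy chain of blood cells, was at 165, 162 and 160.3 CPM in control against 286, 323 and 299 CPM with inhibition (0.90, SE 0.0424), and Myh10, its embryonic relative, at 3.40, 2.79 and 4.33 CPM in control against 1.04, 0.831 and 1.10 CPM with inhibition (-1.84, SE 0.235). Tpm4 rose from 22.6 to 39.4 CPM and Tpm1 fell from 64.4 to 38.2 CPM. The transferrin receptors followed suit, with Tfrc, the receptor of dividing cells, going from 20.9 to 30.6 CPM (0.55, SE 0.0585) and Tfr2, an iron sensor of liver and erythroid cells, from 33.7 to 8.43 CPM (-1.99, SE 0.0693). Among glutathione transferases of the mu class, Gstm1 rose (271, 281 and 277 CPM in control against 921, 904 and 952 CPM with inhibition) and Gstm5 fell (294, 300.2 and 300.3 CPM in control against 80.0, 82.6 and 80.1 CPM with inhibition). Each of these pairs shows 1 relative above and the other below its control range in all 3 inhibition libraries.

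**Figure D5:**
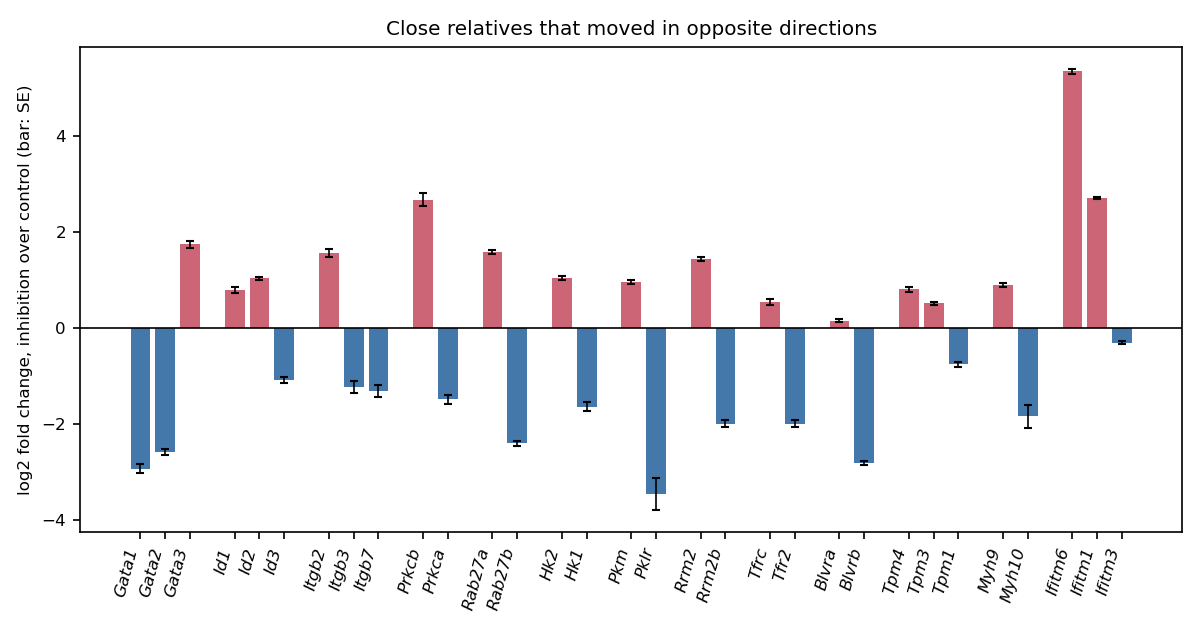
Log2 fold change of inhibition over control (y axis, bars from 0, error bars are the standard error) for close relatives set side by side (x axis), in groups chosen after seeing the values because members moved in opposite directions. Rrm2, Rab27a, Prkcb and Gata3 lie above 0, and Rrm2b, Rab27b, Prkca, Gata2 and Gata1 below it.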

How the data were processed

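Polyadenylated RNA of 1500 sorted mouse HSCs per library was sequenced, with 3 control and 3 inhibition libraries compared here. Trim Galore 0.6.2, STAR 2.6.1d, HTSeq 0.10.0, edgeR 3.24.3 and the mm10 build are named in the submitters' processing notes, which give no strand setting. The authors deposited estimated counts per gene, of which 48.2% of values were whole within 1e-06, and TPM values (transcript abundance scaled by length) per gene; how either was estimated is not given in the sources used here. Estimated counts were rounded and tested with edgeR 4.0.16 (R 4.3.3) by the quasi-likelihood test with TMM scaling and Benjamini-Hochberg adjustment over all 14461 genes kept by filterByExpr, with the threshold at 0.05. All 9 libraries entered 1 fit with a mean per group, so that the third group shares in the filter, the scaling and the spread. The test was also run on simulated counts of 14039 genes, with 66 or 67 genes changed at each size. It called 50% of changes of 0.5 on the log2 scale, 94% of those of 1, 100% of those of 2 and 0.0361% of unchanged genes. In the data 72.4% of genes were called, so the simulation does not show how the test behaves when most genes move. CPM are scaled by TMM-adjusted library totals of 17231844 to 25360256 counts, and 3 counts set the floor; depth limits cover counting error only.

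Genes named are, in each family, up to 4 largest rises and 4 largest falls past the threshold at a mean of at least 5 CPM without overlap, members of the relative groups, marker genes, and the largest changes at 50 CPM or more. Arhgdib, B2m, Casp1, Cd9, Cox14, Cxcr4, Cyba, Gfi1b, H2-D1, H2-K1, Jun, Ldb1, Lmo2, Ltb4r1, Lyl1, Mki67, Myb, Nfe2, Ppp1r15a, Psmb8, Ptk2, Rac1, Ssr1, Tal1 and the Y-linked genes fall outside this rule and were chosen after their values were seen. The members and lists were chosen with earlier results of these data known. Transcript GC content and coordinates are from GENCODE M21 on mm10, which matched 19443 genes and left 11 unmatched, and promoters from RefSeq on GRCm38.p6. Alternatives were RLE and total-count scaling, 2 other filters, 6 libraries only, DESeq2 1.42.0, limma 3.58.1 on log2(TPM + 1) and log2(TPM + 0.1), the replicate number as a block, and each library left out. Whole-count genes alone and scaling along GC content (lowess span 0.3) were added after seeing the data. Some genes of these lists are not reported here.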

Additional observations from a re-analysis of the deposited data

Results flagged for a closer look

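Of the genes outside the compared groups, 2 Y-linked genes stood above control in the 3 libraries from mice given inhibition and spermidine. Ddx3y averaged 14.7 CPM and Eif2s3y 20.1 CPM there. In control they ranged from 0.0516 to 0.121 CPM and from 0.0607 to 0.310 CPM, and in the inhibition libraries from 1.33 to 1.97 CPM and from 1.58 to 2.00 CPM. Uty (87.7 to 90.3 CPM in control, 3.69 to 4.65 CPM with inhibition, 7.05 to 7.58 CPM with spermidine) and Kdm5d (13.03 to 14.55, 4.90 to 5.45 and 9.43 to 11.1 CPM), also Y-linked, had fractional counts and a different order. The sex of the mice is not given in the labels, and its part in the comparison was not tested.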

How the results depend on the processing

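The main counts of genes higher with inhibition (5240) and genes lower with inhibition (5227) became 5347 and 5121 with RLE scaling, 5249 and 5201 with total counts, 5678 and 5659 with no filter, 3782 and 3801 at 5 CPM or more in 3 libraries, and 4958 and 5029 with 6 libraries only. DESeq2 gave 4865 and 4702, limma on log2(TPM + 1) 4847 and 4303, limma on log2(TPM + 0.1) 5079 and 4364, and scaling by GC content 5092 and 5026. With the replicate number as a block the counts were 5191 and 5188; same-numbered libraries did not deviate together (correlations of -0.02, 0.03 and -0.01), so they share only a number. Leaving out 1 library gave 4934 to 5128 higher and 5102 to 5180 lower. Restricted to whole-count genes, the counts were 1544 and 1106, from fewer genes tested. Of the 220 family counts (members higher or lower in each of 110 families), 55 moved by over 1.5 times at 5 CPM or more, 29 and 21 in the limma fits with pseudocounts of 1 and 0.1, 15 with GC scaling, 8 in DESeq2, 7 with 6 libraries, 1 with the block, 3 to 5 when 1 library was left out, and 199 among whole-count genes alone. Of 166 genes given with values, 3 changed sign in some alternative. In limma on log2(TPM + 1) and log2(TPM + 0.1) these were Kit (0.20 and 0.22), Nfe2 (0.092 and 0.095) and Psmb8 (0.10 and 0.10). Psmb8 (0.19) also changed sign with GC scaling, and the cause was not tested. A further 3 genes passed with GC scaling but not in the first fit. Depth limits genes near the floor of 3 counts, such as Procr, Fgd5, Hoxb5, C5ar1 and Ly6g in control, whose fold changes depend on the few counts there.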
